A study of Rattus norvegicus with 28 samples.

Results

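Drd2, Adora2a, Penk, Gpr6 and Gpr52 are 5 genes that mark the spiny projection neurons of the indirect pathway, and they were followed here by name in RNA of rat striatum, as 5 of the 39538 genes of the deposited expression table. The striatum sends its output through a pair of neuron populations. Neurons of the direct pathway carry the dopamine receptor D1 and project to the output nuclei of the basal ganglia. Neurons of the indirect pathway carry the dopamine receptor D2 and reach those nuclei by way of the external pallidum. Within the indirect pathway neurons the receptors act on 1 messenger: dopamine lowers cyclic AMP through the D2 receptor (Drd2), and adenosine raises it through the receptor encoded by Adora2a. Penk encodes the precursor of the opioid peptides called enkephalins, and Gpr6 and Gpr52 encode orphan receptors that raise cyclic AMP.

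The striatum of male rats was sampled in 28 libraries of 4 groups. Wild-type (wt) rats and transgenic (TG) rats, whose genotype is labelled ΔETorA, were either naive or had a right-sided crush of the sciatic nerve, and all are labelled as taken 12 weeks after injury. Each naive group has 8 libraries and each crush group 6. The transgene carries the human TOR1A sequence with the deletion behind DYT-TOR1A dystonia, and the rats keep their own Tor1a. The promoter that drives the transgene, the number of transgenic lines and the age of the rats are not given in the sources used here. Beyond its own number for each library, the labels do not say that the animals were separate, and the spread behind each p-value may therefore be technical.

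Levels are given in RPM, reads per 1000000 reads assigned to genes. Reads assigned to genes numbered 29151455 to 38407359 per library. By counting error alone, a gene with 0 reads could stand at up to 0.103 RPM where depth was lowest. Human TOR1A stood at 102 to 144 RPM in the TG libraries and at 0 to 0.972 RPM in the wt libraries. Slc17a7, a gene of cortical excitatory neurons, was above 20 RPM in 5 libraries: wt naive 197, 199 and 202, TG naive 190 and TG crush 220. Mitochondrial transcripts made up 10.4% to 18.5% of the reads, most in TG crush 223. In whole tissue, fewer cells of a type and less RNA per cell cannot be told apart.

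Promoter sequences were found for Drd2, Gpr6 and Gpr52, 3 of the 5 genes, in RefSeq's table for the rat genome build GRCr8, which holds 250 bases before and 50 bases after each start of transcription. The Drd2 and Gpr6 promoters are shown, which hold different short motifs, while the Gpr52 promoter holds none of those searched. A link between these motifs and the levels of the genes was not tested. Capitals mark 4 motifs searched on both strands: GGGCGG (reverse CCGCCC), the core of a GC box; TGACGTCA, the full cAMP response element, whose first letters are also the half-site TGACG (reverse CGTCA); and TATAAA (reverse TTTATA).
Drd2, chr8:58605153-58605452, plus strand: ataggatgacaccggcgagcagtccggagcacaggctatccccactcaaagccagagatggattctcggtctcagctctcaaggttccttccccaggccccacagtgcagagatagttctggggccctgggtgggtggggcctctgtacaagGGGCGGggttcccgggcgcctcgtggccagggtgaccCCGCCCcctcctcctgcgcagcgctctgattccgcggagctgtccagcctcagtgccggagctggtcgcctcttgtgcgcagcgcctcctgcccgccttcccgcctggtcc
Gpr6, chr20:46075202-46075501, minus strand: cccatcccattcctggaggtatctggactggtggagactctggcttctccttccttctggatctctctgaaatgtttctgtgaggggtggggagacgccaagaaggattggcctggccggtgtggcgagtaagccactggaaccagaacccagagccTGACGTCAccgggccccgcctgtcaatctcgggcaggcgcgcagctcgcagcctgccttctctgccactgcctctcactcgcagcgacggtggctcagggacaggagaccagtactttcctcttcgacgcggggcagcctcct

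The Drd2 promoter holds GGGCGG at 98 bases before the start as written and on the other strand, as CCGCCC, at 61 bases before it. The Gpr6 promoter holds TGACGTCA at 93 bases before the start, and the half-site TGACG is part of it on both strands. In that table, of all 33469 promoters, 33.1% hold GGGCGG, 1.83% hold TGACGTCA, 21.2% hold TGACG and 14.2% hold TATAAA. The Drd2 promoter has a GC content of 67.3% with 19 CpG dinucleotides, the Gpr6 promoter 62% with 16 and the Gpr52 promoter (chr13:75338358-75338657, minus strand) 50.3% with 6, where the median promoter of the table has 51.7% and 7. None of the 4 motifs is in the Gpr52 window. A match describes the letters of the window and is not a measured binding site.

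Of the 5 genes, 4 were above 0 in every library and passed the minimum for testing, and Gpr52 was listed at 0 reads in all 28 libraries. Gpr52 (chromosome 13, 78326545 to 78331349, minus strand, Rnor_6.0) lies wholly inside Rabgap1l (chromosome 13, 77975392 to 78609009), a long gene of the same strand with a mean of 67.4 RPM. All 512 protein-coding genes of the table that lie wholly inside a gene of the same strand were at 0 in every library, 100% of them. Of the genes that lie inside a gene of the opposite strand alone 98 of 653 were at 0 in every library (15.0%), and of those inside no other gene 2546 of 21775 (11.7%). The 0 of Gpr52 therefore cannot be read as a level of expression, and the gene has no value in what follows.

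Drd2, the inhibitory dopamine receptor (chromosome 8, 53678777 to 53743643, plus strand, Rnor_6.0), was highest on average in wt crush rats. In wt naive libraries it ranged from 190 to 376 RPM with a median of 301 and a mean of 287 ± 73.1 (SD, n = 8). In wt crush libraries it ranged from 322 to 385 with a median of 350 and a mean of 351 ± 25.8 (SD, n = 6). TG naive libraries lay between 236 and 354 with a median of 328 and a mean of 312 ± 43.3 (SD, n = 8), and TG crush libraries between 219 and 400 with a median of 314 and a mean of 314 ± 63.6 (SD, n = 6). All 4 groups overlapped, and the wt crush libraries were the least spread, with a coefficient of variation of 7.37% against 25.5% in wt naive libraries.

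Adora2a, the stimulatory adenosine receptor (chromosome 20, 14265251 to 14282873, minus strand), had the same order of wt groups. Wt naive libraries ranged from 261 to 478 RPM with a median of 415 and a mean of 385 ± 86.8 (SD, n = 8). Wt crush libraries ranged from 434 to 502 with a median of 443 and a mean of 456 ± 27.0 (SD, n = 6). The TG groups stood between them, at 428 ± 52.5 (SD, n = 8) with a range of 337 to 475 and a median of 454 in naive rats, and at 425 ± 72.5 (SD, n = 6) with a range of 307 to 505 and a median of 436 in crush rats. Every group overlapped every other.

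Penk, the enkephalin precursor (chromosome 5, 17056412 to 17061762, minus strand), ranged from 987 to 1694 RPM in wt naive libraries, with a median of 1351 and a mean of 1377 ± 269 (SD, n = 8). In wt crush libraries the range was 1422 to 1700, the median 1621 and the mean 1589 ± 98.9 (SD, n = 6). TG naive libraries ranged from 1136 to 1756 with a median of 1472 and a mean of 1464 ± 210 (SD, n = 8). TG crush libraries averaged 1409 ± 263 (SD, n = 6), with a range of 878 to 1558 and a median of 1505. A single TG crush library, 223, stood at 878 RPM, below the lowest library of any other group.

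Gpr6, an orphan receptor (chromosome 20, 45813169 to 45815940, minus strand), was the lowest of the 4 in RPM. Its range was 50.2 to 110 RPM in wt naive libraries (median 85.9, mean 80.3 ± 24.5, SD, n = 8) and 93.7 to 118 in wt crush libraries (median 110, mean 107 ± 9.28, SD, n = 6). TG naive libraries ranged from 62.0 to 105 (median 88.7, mean 87.0 ± 14.8, SD, n = 8) and TG crush libraries from 59.0 to 120 (median 93.0, mean 93.8 ± 20.9, SD, n = 6). Here too the groups overlapped. Per kilobase of gene span, introns included, the mean level over all libraries was 272 RPKM for Penk, 32.8 for Gpr6, 23.9 for Adora2a and 4.83 for Drd2, an order that depends on intron length as well as on expression.

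**Figure D1:**
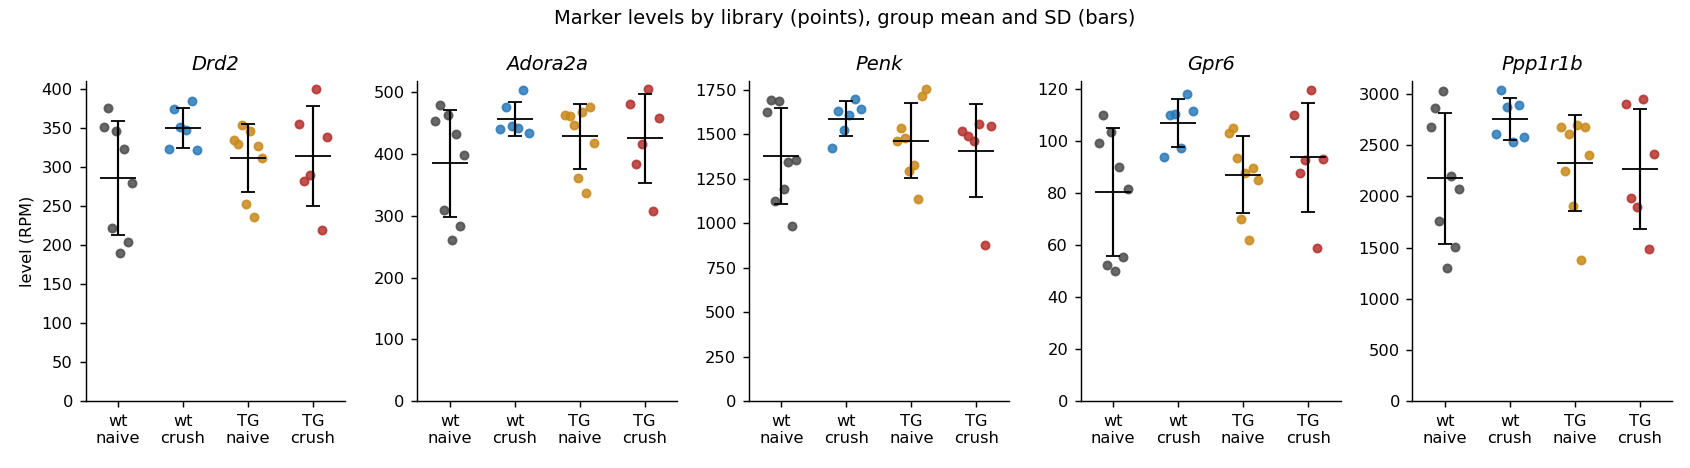
Level of Drd2, Adora2a, Penk, Gpr6 and the shared spiny neuron gene Ppp1r1b in RPM (vertical axes, from 0) in the 4 groups; each point is 1 library, and the bars give the group mean and SD. The wt crush libraries lie closest together in every panel, and TG crush library 223 is the low point of its group at 878 RPM of Penk.

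Levels of the 4 genes varied together from library to library within a group. After subtracting the group means on the log2 scale, Drd2 and Adora2a had a Pearson r of 0.984 over 28 libraries, Adora2a and Gpr6 0.959, and Drd2 and Gpr6 0.953. Penk stood somewhat apart, with r between 0.817 and 0.842 to the other 3. These correlations describe libraries that share depth, dissection and composition, and they carry no test. Genes of most similar pattern, among 13893 tested genes with a true symbol, were Adcy5, the adenylyl cyclase of spiny neurons (r 0.974), and Smpd3 (0.969) for Drd2. For Adora2a they were Adcy5 (0.973) and Hpca, a neuronal calcium sensor (0.966). For Penk they were Cx3cl1 (0.932), the chemokine fractalkine, and Wipf3 (0.929), and for Gpr6 the potassium channel subunit gene Kcnab1 (0.974) and Lingo3 (0.968).

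Genes that are not particular to the indirect pathway varied with them too. Ppp1r1b encodes the dopamine-regulated phosphoprotein DARPP-32 of both kinds of spiny neuron. It had r of 0.952 with Drd2, 0.944 with Adora2a, 0.905 with Gpr6 and 0.800 with Penk. Drd1, the direct pathway receptor gene, had r of 0.905 with Drd2 and 0.956 with Gpr6. Pdyn, the dynorphin precursor of direct pathway neurons, had r of 0.298 with Drd2 and 0.630 with Penk. Chat, a marker of the cholinergic interneurons that also hold Drd2, had r of -0.30 with Drd2. The cortical gene Slc17a7 had r of -0.54 with Drd2, -0.47 with Adora2a, -0.50 with Gpr6 and -0.22 with Penk.

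TG naive 192 and TG crush 223 were the lowest of their groups for all 4 genes, for Ppp1r1b and for Drd1. Wt naive 199 was the lowest of its group for the same genes other than Penk, whose lowest wt naive library was 201. The summed level of 5 oligodendrocyte markers was the highest of its group in TG naive 192 (29063 RPM), TG crush 223 (32804) and wt naive 201 (36044). The group medians of that sum ran from 18757 RPM in wt crush to 20783 in wt naive libraries. In wt naive 199 it was 19814 RPM, and the sum of 5 cortical markers was 42.9 against a group median of 9.51. TG naive 192 also held 15.1 RPM of 3 dopamine neuron markers, where the group median was 0.973. The sum of 5 pallidal markers was the highest of its group in wt naive 199 (144 RPM, group median 118) and TG naive 192 (173, group median 118), and stood at 141 in wt naive 201 and 105 in TG crush 223 (group median 122). The cholinergic sum was the highest of its group in wt naive 201 (87.5 RPM, group median 58.5, with 86.7 in wt naive 199) and TG naive 192 (91.9, group median 46.7), and the lowest of its group in TG crush 223 (37.9, group median 68.4). The part of these markers in the members' levels was not tested.

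**Figure D2:**
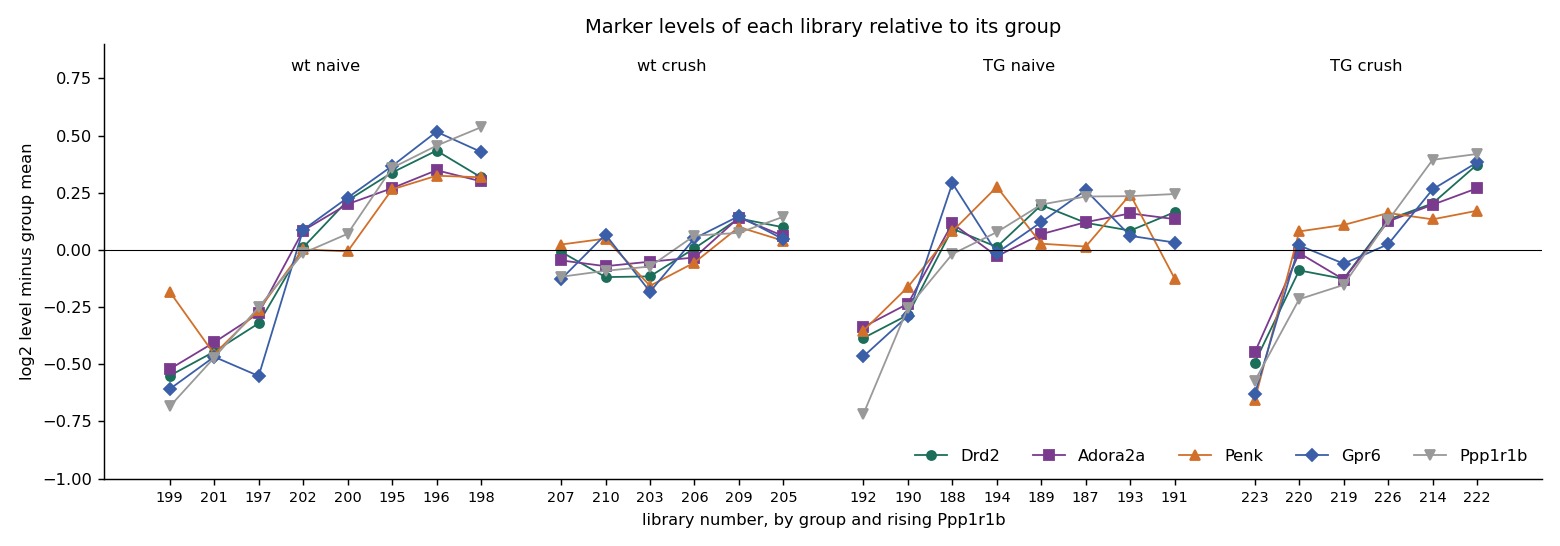
Log2 level of each library minus its group mean (vertical axis) for Drd2, Adora2a, Penk, Gpr6 and Ppp1r1b; libraries (horizontal axis) are grouped and, within a group, placed by rising Ppp1r1b. The lines of the receptor genes and Ppp1r1b broadly follow each other in wt naive and TG crush libraries. Penk departs from them in some libraries, such as wt naive 199 and TG crush 220. The wt crush libraries stay close to 0.

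Between genotypes in naive rats, which asks whether the transgene alone goes with another level of these markers, no gene of the 4 passed the test. The log2 change in TG against wt rats was 0.15 (SE 0.13) for Drd2, 0.18 (SE 0.12) for Adora2a, 0.10 (SE 0.12) for Penk and 0.16 (SE 0.16) for Gpr6, each with a limma adjusted p = 0.999 (Benjamini-Hochberg over 18222 genes). Their 95% intervals reached from -0.16 at the lowest to 0.48 at the highest, so that for Gpr6 a rise to 1.39-fold was within the interval. Of all genes tested 0.0329% were called in this comparison at an adjusted p under 0.05.

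Between genotypes after nerve crush the 4 log2 changes were below 0, and again none passed. The log2 change was -0.18 (SE 0.15, adjusted p = 0.757) for Drd2, -0.12 (SE 0.13, adjusted p = 0.823) for Adora2a, -0.20 (SE 0.14, adjusted p = 0.702) for Penk and -0.22 (SE 0.18, adjusted p = 0.756) for Gpr6 by limma. Ppp1r1b stood at -0.32 (SE 0.19). The share of all genes called was 0.00549%.

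In wt rats nerve crush went with the highest levels of the 4 genes, at differences that did not pass the adjusted test. The log2 change against wt naive rats was 0.47 (SE 0.17, limma adjusted p = 0.152) for Gpr6, 0.33 (SE 0.14, adjusted p = 0.196) for Drd2, 0.28 (SE 0.13, adjusted p = 0.211) for Adora2a and 0.23 (SE 0.13, adjusted p = 0.295) for Penk. The 95% intervals excluded 0 for the 3 receptors, without adjustment for the number of genes, and included it for Penk. By the same unadjusted measure, 3796 of all 18222 genes had a limma p under 0.05, so many genes stood with the receptors. Ppp1r1b had a change of 0.39 (SE 0.18, adjusted p = 0.214), and 0.159% of all genes were called. Without the 5 libraries high in Slc17a7, 3 of which are wt naive and none wt crush, the log2 changes were 0.25 for Gpr6, 0.16 for Drd2, 0.14 for Adora2a and 0.14 for Penk.

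Markers of other cells were read in the same comparison of wt crush with wt naive rats, and none of them passed limma's test. None of 5 astrocyte markers was above 0 (median log2 change -0.13), nor any of 5 oligodendrocyte (-0.098), 4 endothelial (-0.18), 5 cortical (-0.73), 3 choroid plexus (-0.56) or 4 cholinergic markers (-0.05). Above 0 were 1 of 5 microglial (-0.22), 2 of 5 pallidal (-0.08) and all 3 pituitary markers (1.91). In wt naive and wt crush libraries the summed astrocyte markers ranged over 2006 to 3387 and 2072 to 2322 RPM, the oligodendrocyte markers over 16142 to 36044 and 17005 to 19714, and the microglial markers over 251 to 394 and 279 to 321. In the same order the endothelial sum ranged over 289 to 373 and 269 to 333 RPM, the cortical sum over 5.18 to 66.7 and 3.07 to 7.24, and the pituitary sum over 1.47 to 4.61 and 2.39 to 180. The wt crush ranges lay within those of wt naive libraries for the astrocyte, oligodendrocyte, microglial, pallidal, cholinergic and choroid plexus sums. They reached lower for the endothelial and cortical sums and higher for the pituitary sum. The part of these markers in the members' levels was not tested.

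In TG rats the crush and naive groups were close. The log2 change was 0.09 (SE 0.17, limma adjusted p = 0.821) for Gpr6, -0.00060 (SE 0.14, adjusted p = 0.999) for Drd2, -0.02 (SE 0.13, adjusted p = 0.951) for Adora2a and -0.07 (SE 0.13, adjusted p = 0.826) for Penk. In this comparison 3.08% of all genes were called, the largest share of the 5. The difference of the crush effect between TG and wt rats was -0.33 (SE 0.20) for Drd2, -0.30 (SE 0.18) for Adora2a, -0.30 (SE 0.18) for Penk and -0.37 (SE 0.24) for Gpr6. As an interaction term none passed (limma adjusted p from 0.699 to 0.715), with 0.00549% of all genes called.

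**Figure D3:**
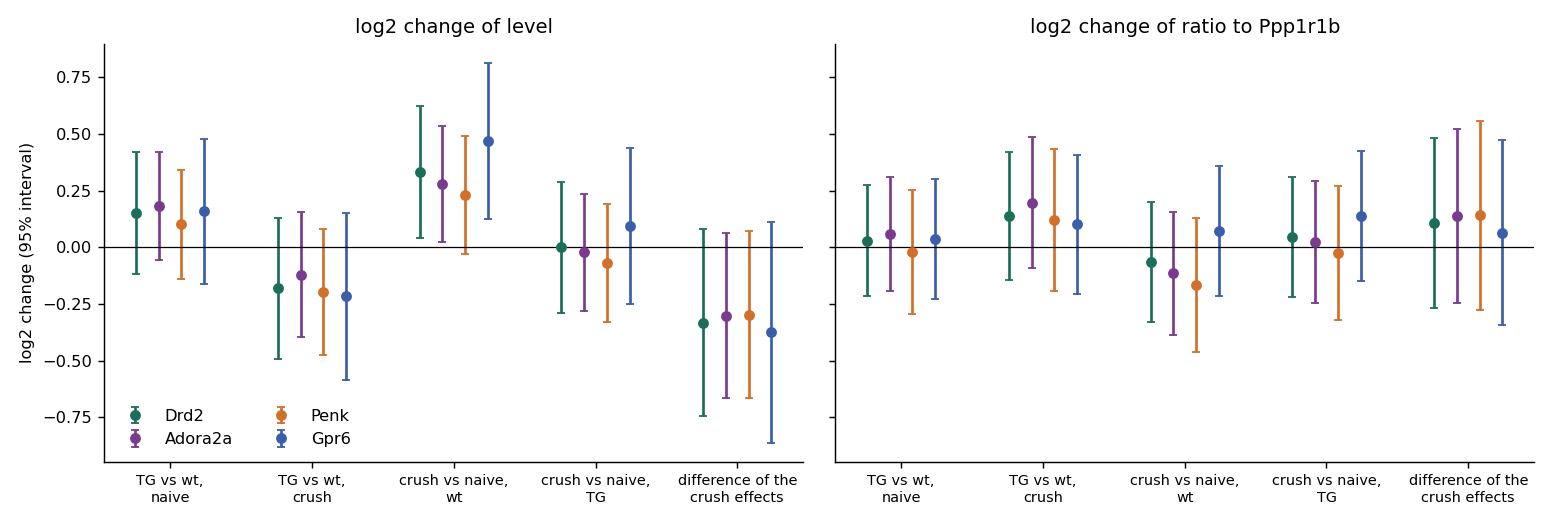
Log2 change (vertical axis) of Drd2, Adora2a, Penk and Gpr6 in 5 comparisons (horizontal axis), for the level on the left and for the ratio to Ppp1r1b on the right; points are limma estimates and bars their 95% intervals, unadjusted. The intervals of the 3 receptors lie above 0 for crush against naive wt rats on the left, and all intervals on the right include 0. In that comparison of levels 3796 of all 18222 genes had an unadjusted limma p under 0.05.

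Dividing by Ppp1r1b in the same library sets the indirect pathway markers against a gene of all spiny neurons. The spread between libraries of a group shrank with it: the pooled within-group SD on the log2 scale went from 0.28 to 0.12 for Drd2, from 0.25 to 0.14 for Adora2a, from 0.34 to 0.15 for Gpr6 and from 0.25 to 0.21 for Penk. Drd2 stood at 0.133 ± 0.0105 of Ppp1r1b in wt naive libraries (range 0.114 to 0.147, median 0.133, SD, n = 8) and at 0.127 ± 0.0062 in wt crush libraries (range 0.123 to 0.137, median 0.124, SD, n = 6). In TG libraries it was 0.137 ± 0.0157 (range 0.122 to 0.171, median 0.131, SD, n = 8) in naive and 0.140 ± 0.0105 (range 0.123 to 0.153, median 0.141, SD, n = 6) in crush rats.

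Adora2a had its lowest ratio in wt crush libraries too. Its ratio was 0.180 ± 0.0169 (range 0.153 to 0.201, median 0.182, SD, n = 8) in wt naive and 0.166 ± 0.00833 (range 0.155 to 0.174, median 0.168, SD, n = 6) in wt crush libraries. It was 0.188 ± 0.0251 (range 0.171 to 0.243, median 0.176, SD, n = 8) in TG naive and 0.191 ± 0.0202 (range 0.166 to 0.219, median 0.191, SD, n = 6) in TG crush libraries. The TG crush and wt crush ranges overlapped between 0.166 and 0.174.

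Penk, by far the most abundant of the 4 relative to Ppp1r1b, had ratios of 0.655 ± 0.111 (range 0.557 to 0.917, median 0.628, SD, n = 8) in wt naive and 0.579 ± 0.0487 (range 0.532 to 0.637, median 0.566, SD, n = 6) in wt crush libraries. In TG naive libraries the ratio was 0.646 ± 0.107 (range 0.494 to 0.821, median 0.661, SD, n = 8) and in TG crush libraries 0.635 ± 0.107 (range 0.524 to 0.770, median 0.617, SD, n = 6). Gpr6 differed from the other 3 in that its mean ratio was lowest in wt naive libraries. Its ratio was 0.0369 ± 0.00354 (range 0.0298 to 0.0411, median 0.0377, SD, n = 8) in wt naive, 0.0389 ± 0.00281 (range 0.0359 to 0.0433, median 0.0385, SD, n = 6) in wt crush, 0.0380 ± 0.00517 (range 0.0326 to 0.0468, median 0.0363, SD, n = 8) in TG naive and 0.0417 ± 0.00416 (range 0.0380 to 0.0489, median 0.0402, SD, n = 6) in TG crush libraries. The ratios of all groups overlapped.

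**Figure D4:**
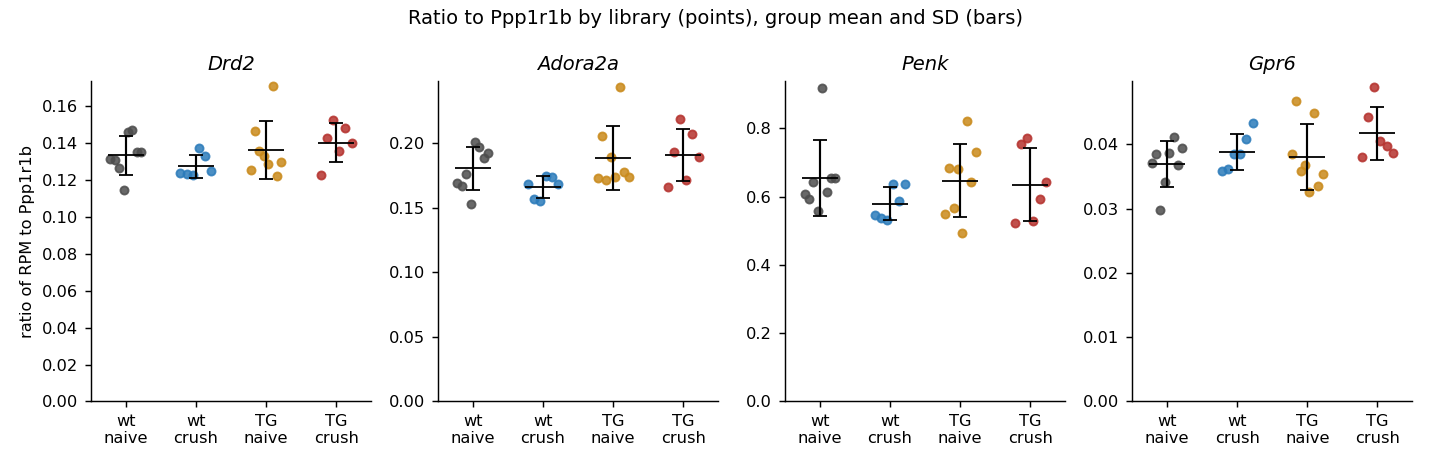
Ratio of Drd2, Adora2a, Penk and Gpr6 to Ppp1r1b (vertical axes, from 0, no unit) in the 4 groups; each point is 1 library, and the bars give the group mean and SD. For Adora2a the wt crush libraries lie between 0.155 and 0.174 and the TG crush libraries between 0.166 and 0.219.

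No ratio passed the limma test over all genes in any of the 5 comparisons. In that test every gene is divided by Ppp1r1b, so its own variation enters every value. The shares of all 18221 genes called were 0.00549% for TG against wt naive rats, 0.00549% for TG against wt crush rats, 0.0165% for crush against naive wt rats, 0.022% for crush against naive TG rats and 0% for the interaction. For the interaction no gene of the table was called by limma at an adjusted p under 0.05, while 1624 had an unadjusted p under 0.05. The median log2 change over all genes on this scale was -0.13, 0.32, -0.43, 0.03 and 0.45 in the same order. The 4 genes had log2 changes of 0.10 to 0.20 between the crush genotypes, below that median of 0.32.

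The limma ratio fit gave larger errors than the genes' own spread: its SE for Drd2 between the crush genotypes was 0.14, against 0.053 from the 12 libraries alone. An exact two-sided permutation test over libraries was therefore added, after the limma result had been seen, for 4 genes in 4 comparisons. Of these 16 tests, which are not adjusted for their number, 2 gave p under 0.05, both between TG crush and wt crush rats. The same exact permutation test of all 18221 genes against Ppp1r1b called 12.5% of them in that comparison, 2257 of the 2275 higher in TG crush rats, so many genes stood with the 2 receptors. In the other comparisons it called 0.269% (TG against wt naive), 35.3% (crush against naive wt) and 1.12% (crush against naive TG rats), and none of the 4 members. Adora2a was higher relative to Ppp1r1b in TG crush rats by a log2 difference of 0.20 (SE 0.069, exact permutation p = 0.0260), and Drd2 by 0.14 (SE 0.053, exact permutation p = 0.0325). The difference was 0.12 (exact permutation p = 0.331) for Penk and 0.10 (exact permutation p = 0.197) for Gpr6.

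These 2 differences are small and rest on few libraries. Leaving out each of the 12 libraries in turn gave exact permutation p between 0.00649 and 0.0455 for Adora2a and between 0.00866 and 0.0693 for Drd2, whose p stayed under 0.05 in 5 of 12 cases. TG crush 220, a library high in Slc17a7, had the highest ratio of its group for both. Without it the log2 difference was 0.16 for Adora2a (exact permutation p = 0.0455) and 0.11 for Drd2 (exact permutation p = 0.0693). The levels themselves differed the other way, at -0.12 for Adora2a and -0.18 for Drd2, with Ppp1r1b at -0.32.

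Other spiny neuron genes were also taken as the denominator. Over all 4 denominators (Ppp1r1b, the phosphodiesterase gene Pde10a, Drd1, and the geometric mean of 8 genes of both kinds of spiny neuron) 13 of 64 exact permutation tests had an unadjusted p under 0.05. Against Pde10a the pooled within-group SD on the log2 scale was 0.26 for Drd2, 0.29 for Adora2a, 0.34 for Penk and 0.20 for Gpr6. For Adora2a and Penk this was larger than the SD of the level, and for Drd2 and Gpr6 smaller. The level of Pde10a itself had a pooled SD of 0.49. Between the crush genotypes the members called were 3 of 4 against Pde10a, where 46.2% of all genes were called, 2 of 4 against Drd1 (33.5%) and 1 of 4 against the 8 genes (19.0%). For crush against naive wt rats they were none against Pde10a (18.3%), 3 of 4 against Drd1 (82.1%) and 1 of 4 against the 8 genes (37.7%). For crush against naive TG rats they were none against Pde10a (0.659%) or Drd1 (0.730%) and 1 of 4 against the 8 genes (1.64%). For TG against wt naive rats they were none, with 0.0878%, 0.176% and 0.390% of all genes called in the same order. With 4 members, these counts show nothing particular to them. For Adora2a between the crush genotypes the log2 difference was 0.35 against Pde10a (exact permutation p = 0.0346), 0.31 against Drd1 (exact permutation p = 0.0411) and 0.18 against the 8 genes (exact permutation p = 0.0260). With single libraries left out the p of Adora2a stayed under 0.05 in 6 of 12 cases against Pde10a and 6 of 12 against Drd1, reaching 0.0714 and 0.0779 without wt crush 206, and in 9 of 12 against the 8 genes, reaching 0.0519 without wt crush 205. Without the libraries high in Slc17a7 its exact permutation p was 0.0606, 0.0628 and 0.0411. For Drd2 it was 0.29 against Pde10a (exact permutation p = 0.0433), 0.25 against Drd1 (exact permutation p = 0.0563) and 0.12 against the 8 genes (exact permutation p = 0.0671). The p of Drd2 against Pde10a stayed under 0.05 in 4 of 12 such cases, reached 0.0887 without TG crush 223 and was 0.0779 without the libraries high in Slc17a7. For Gpr6 it was 0.26 against Pde10a (exact permutation p = 0.0238), 0.21 against Drd1 (exact permutation p = 0.0260) and 0.08 against the 8 genes (exact permutation p = 0.0519). The p of Gpr6 stayed under 0.05 in 12 of 12 cases against Pde10a and in 10 of 12 against Drd1, reaching 0.0584 without wt crush 206. Penk had no p under 0.05 between the crush genotypes with any of the 4.

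Relative to Drd1, which sets the indirect against the direct pathway, Drd2, Adora2a and Penk were lower in wt crush than in wt naive rats by the exact test. Drd2 stood at 1.224 ± 0.0945 times Drd1 in RPM (SD, n = 8; range 1.05 to 1.32) in wt naive libraries and at 1.04 ± 0.0879 (SD, n = 6; range 0.927 to 1.13) in wt crush libraries, so the groups overlapped. It was 1.27 ± 0.203 (SD, n = 8) in naive TG libraries against 1.24 ± 0.236 (SD, n = 6) after crush. The log2 difference between wt crush and wt naive rats was -0.24 for Drd2 (exact permutation p = 0.00466), -0.29 for Adora2a (exact permutation p = 0.00566), -0.34 for Penk (exact permutation p = 0.00633) and -0.10 for Gpr6 (exact permutation p = 0.0716). For the first 3 of these p was at most 0.0186 with any single library left out, and at most 0.0390 without the libraries high in Slc17a7. By limma with Drd1 as denominator the adjusted p was 0.144 for Drd2, 0.0866 for Adora2a, 0.0561 for Penk and 0.511 for Gpr6, so none passed, while 14254 of 18221 genes did. The exact test called 82.1% of all genes lower or higher against Drd1 in this comparison, 14956 of the 14964 lower, and the 3 members stood among these. A ratio shows unequal change of its members and not which of them changed: the level of Drd1 was 239 ± 77.0 RPM (SD, n = 8) in naive wt libraries against 340 ± 32.3 (SD, n = 6) after crush, a log2 change of 0.57 (SE 0.20, limma adjusted p = 0.149). Against other direct pathway genes the picture was mixed, without a test of these ratios. Penk stood at 7.96 ± 1.16 times Pdyn in RPM (SD, n = 8) in naive wt libraries against 8.51 ± 1.32 (SD, n = 6) after crush. Against Tac1, the substance P precursor gene, it stood at 10.5 ± 2.70 (SD, n = 8) and 8.12 ± 1.07 (SD, n = 6), and for both ratios the groups overlapped.

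Against the geometric mean of 8 spiny neuron genes the spread within groups was smallest, with a pooled SD on the log2 scale of 0.075 for Gpr6, 0.089 for Drd2, 0.11 for Adora2a and 0.18 for Penk. On that scale Gpr6 was higher in TG crush than in TG naive rats by 0.11 (exact permutation p = 0.00333), and p was at most 0.0109 with any single library left out. The corresponding difference against Ppp1r1b was 0.14 (exact permutation p = 0.157), and against Drd1 0.06 (exact permutation p = 0.511). Adora2a was lower in wt crush than in wt naive rats on the 8-gene scale, at a log2 difference of -0.12 (exact permutation p = 0.0453), and p reached 0.101 without wt crush 206. Without the libraries high in Slc17a7 it was -0.090 (exact permutation p = 0.208). For Gpr6 in TG rats, also without those libraries, the difference was 0.083 (exact permutation p = 0.0164). With all libraries kept, the exact test on the 8-gene scale called 37.7% of all genes between wt crush and wt naive rats. Of these 6870 genes 6835 were lower, and the median log2 change over all genes was -0.43. Between TG crush and TG naive rats it called 1.64%. The results for Adora2a and Gpr6 come from the 64 unadjusted tests above.

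Other genes of the pathway, in lists drawn up with earlier results of these data known, were read beside the members. Of 6 other genes enriched in indirect pathway neurons none passed limma's test in any comparison. Between wt crush and wt naive rats their median log2 change was 0.10, with 5 of 6 above 0, where the median of all 18222 genes was -0.03. The one of lowest p there, Plxdc1, had a change of 0.34 (SE 0.12, adjusted p = 0.152). Of 7 direct pathway genes none passed in any comparison. In the same comparison all 7 were above 0 with a median of 0.33, led by Drd1. The 12 genes of both kinds of spiny neuron had a median of 0.41 and all were above 0, among them Rasgrp2, an exchange factor for the small GTPase Rap (0.45, SE 0.17, adjusted p = 0.160). None of the 12 passed in any comparison.

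Between TG crush and wt crush rats 3 of the 6 other indirect pathway genes were above 0, with a median log2 change of -0.04. None of the 7 direct pathway genes (median -0.28) and none of the 12 shared genes (median -0.27) was above 0, and the median over all genes was 0.0000098. This comparison shares the wt crush libraries with the one before it, so the signs of the pair are not separate measurements.

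Downstream of the receptors, 19 of 20 genes for signalling to cyclic AMP were tested and none passed in any comparison. Ric8b, a chaperone of the G protein that couples the Adora2a receptor to adenylyl cyclase in striatum, came closest, with a log2 change of 0.37 (SE 0.096, limma adjusted p = 0.0806) in wt crush against wt naive rats. Its adjusted p was under 0.05 in 2 of 28 fits with a library left out, those without wt naive 196 (limma adjusted p = 0.0263) and without TG crush 223 (0.0222). Without the libraries high in Slc17a7 the limma adjusted p of Ric8b was 0.384. Of 9 genes for enkephalin processing and opioid receptors, 1 fell and 8 did not pass in TG crush against TG naive rats, and none passed elsewhere. The gene that fell was Ece1, an endothelin-converting enzyme that also cleaves other peptides: it stood at 71.1 ± 6.20 RPM (SD, n = 8) in naive TG libraries against 60.6 ± 3.08 (SD, n = 6) after crush, a log2 change of -0.22 (SE 0.056, limma adjusted p = 0.0271). Its adjusted p was 0.0985 without the libraries high in Slc17a7 and 0.0977 with those 2 groups fitted alone, and the call was lost with 5 of the 28 libraries left out one at a time: TG naive 190 and 193 and TG crush 219, 220 and 222. In TG crush against TG naive rats 562 of all 18222 genes were called (3.08%), 365 of them lower. Ece1 is also an endothelial gene, and 2 of 4 endothelial markers fell in that comparison, with a summed level of 304 to 380 RPM in TG naive and 263 to 371 in TG crush libraries. The part of endothelium in the change of Ece1 was not tested.

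Mme, which encodes the enkephalin-degrading enzyme neprilysin, had a log2 change of 0.63 (SE 0.23, limma adjusted p = 0.151) in wt crush against wt naive rats. Of 12 genes for the supply and clearance of adenosine and dopamine 11 were tested and none passed. The one of lowest p in the wt crush comparison was Adk, the adenosine kinase (-0.13, SE 0.044, adjusted p = 0.148). Markers of dopamine neurons, which also hold Drd2, were low: in wt naive libraries Th was at 0.625 ± 0.393 RPM (SD, n = 8) and Slc6a3 at 0.0778 ± 0.0696 (SD, n = 8). Chat, of the cholinergic interneurons, lay between 11.9 and 32.6 RPM over all libraries, with a mean of 21.5 ± 3.11 (SD, n = 6) in wt crush rats. Slc18a3, another marker of those interneurons, was listed at 0 in all libraries, as Gpr52 was, and this 0 is likewise not read as a level of expression.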

How the data were processed

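The submitters isolated mRNA from frozen striatum, prepared stranded libraries and sequenced single-end reads of 75 nt in 2 runs, per the labels' protocols. The labels do not tie libraries to runs. STAR 2.6.1a, featureCounts of Subread 1.6.3 and DESeq2 1.22.2 are named with the build Rnor_6.0, per the submitters' processing notes. For strand and overlapping genes, the counting options are not given in sources used here. The deposited table holds RPKM values with decimal commas, so its unit was recorded as other, since a check of units misreads commas. The deposited length of a gene is its span with introns. RPKM times length in kilobases gave RPM, and 100% of these came out as whole numbers of reads (tolerance 0.02).

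With limma 3.58.1 in R 4.3.3, log2(RPM + 0.5) was fitted on the 4 groups with all 28 libraries, over 18222 genes with at least 0.5 RPM in at least 6 libraries, with calls at an adjusted p under 0.05. A second fit took each gene's log2 difference from Ppp1r1b. Simulated counts, in which some genes were changed between TG crush and wt crush groups, were used to check the fit. It recovered 8% of 50 genes changed 1.2-fold, 82% at 1.5-fold and 100% at 2-fold, with 5 false calls. The simulation gave every gene the same spread, which real genes do not have. That spread was below the members' own, whose pooled within-group SD was 0.25 to 0.34 on the log2 scale. The shares recovered therefore overstate what the fit would recover for the members. Small changes can therefore be missed by the fit. Alternatives were other pseudocounts, filters, scalings and denominators, array weights, robust moderation, limma-voom on the reads, fits of 2 groups at a time, and leaving out each library. The members and the gene lists were chosen with earlier results of these data known. Genes named are the 5 members, Ppp1r1b, Slc17a7, the 2 genes most similar to each member, and up to 3 genes of lowest p per list in a comparison. Drd1, Pdyn and Chat as partners in correlations were named besides. Exact permutation tests of ratios (scipy 1.17.1, Python 3.11.15) and the fits without 5 libraries high in Slc17a7 were chosen after seeing the data, the former once the ratio fit had called no member; their p-values are unadjusted. The same exact test was then run on all genes tested. Figures were drawn with matplotlib 3.10.9.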

Additional observations from a re-analysis of the deposited data

Results flagged for a closer look

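Of 32 groups of 6 or 8 libraries examined (4 genes, 4 groups, level and ratio to Ppp1r1b), 3 held a library far from the others, where chance gives about 5% of groups. TG crush 223 was low in Penk, at 878 RPM. Wt naive 199 was high in the ratio of Penk to Ppp1r1b, at 0.917, with the lowest Ppp1r1b of its group. TG naive 192 was high in the ratio of Adora2a to Ppp1r1b, at 0.243, and also had the lowest Ppp1r1b of its group. The cause was not tested for any of the 3.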

How the results depend on the processing

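No paired analysis was possible because no replicate number is shared between groups. No level of the 4 genes was called under any alternative. On the ratio to Ppp1r1b, array weights, whose estimation stopped before converging, called 2 of the 4 between the crush genotypes, 2 between wt crush and naive rats and 4 for the interaction, where they also called 14149, 14313 and 15922 of 18221 genes. On the level in wt crush against wt naive rats, array weights called 1436 of 18222 genes. Among them were 4 genes of the lists that did not pass in the fit of the report: Plxdc1 (0.29, limma adjusted p = 0.0474), Drd1 (0.50, adjusted p = 0.0402), Ric8b (0.34, adjusted p = 0.00663) and Adk (-0.12, adjusted p = 0.0446). Not every gene of the lists was checked in this way. Ric8b also passed without wt naive 196 (adjusted p = 0.0263) and without TG crush 223 (0.0222). Without the libraries high in Slc17a7 none of these 4 genes passed in this comparison. The limma adjusted p was then 0.384 for Ric8b, 0.466 for Plxdc1, 0.515 for Drd1 and 0.423 for Adk. For Rasgrp2 it was 0.521 and for Mme 0.516. Other values printed here changed direction. For the level in TG crush against TG naive rats, Drd2 went to 0.016 with median-of-ratios scaling, 0.016 with quantile normalization and 0.056 with array weights, Adora2a to 0.036 with array weights, and Penk to 0.0079 with quantile normalization and 0.0044 with array weights. With array weights the ratios in TG against wt naive rats were -0.13 for Drd2, -0.12 for Adora2a and -0.16 for Gpr6, that of Gpr6 in wt crush against naive rats -0.047 and that of Penk in TG crush against naive rats 0.20. Against Drd1, Gpr6 in wt crush rats was -0.10, and in TG crush rats Drd2 was -0.038 and Adora2a -0.059. Against Pde10a, Gpr6 in wt crush rats was -0.088, and against the 8 genes Adora2a in TG crush rats was -0.0063. Without the libraries high in Slc17a7, chosen after seeing the data, Gpr6 in TG against wt naive rats was -0.015 in level, and the ratio of Penk was 0.066 there and -0.0060 for the interaction, and that of Adora2a in TG crush against naive rats -0.015.

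Leaving out each library in turn, the level in TG crush against TG naive rats ranged from -0.075 to 0.098 for Drd2, from -0.076 to 0.068 for Adora2a and from -0.12 to 0.062 for Penk. The ratio in TG against wt naive rats ranged from -0.018 to 0.051 for Drd2, from -0.074 to 0.050 for Penk and from -0.0082 to 0.066 for Gpr6. In TG crush against naive rats it ranged from -0.018 to 0.077 for Adora2a and from -0.084 to 0.028 for Penk. The cause was not tested.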
